A study of Mus musculus with 37 samples.

Results

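The 46 genes described here carry out the cell division cycle and DNA replication. They were given as a fixed list of E2F factors, cyclins and their kinases, CDK inhibitors, replication factors, nucleotide synthesis enzymes and mitosis genes, out of 48795 genes in the count table of the hippocampus, and all 46 were found by symbol in the GENCODE M21 annotation of the mouse genome (GRCm38). The list was drawn up with results of these libraries already known, around the question whether E2f2, Tk1 and Birc5 rise alone among the cell cycle genes of Kdm1a-ifKOs.

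The study removed the H3K4 demethylase Kdm1a from forebrain principal neurons of adult mice and asked what followed for transcription and chromatin. Poly-A RNA was sequenced from the hippocampi of 3 Kdm1a-ifKO mice and 3 control littermates, with 1 library per mouse. Kdm1a-ifKOs were male Kdm1a f/f mice that carried Camk2a-creERT2, a tamoxifen-dependent recombinase driven in excitatory forebrain neurons, and the controls were male littermates without the recombinase. Mice of both groups were on the C57BL/6J background and received tamoxifen at 8 weeks of age. The deletion was restricted to principal neurons, while the RNA came from the whole tissue, so that glia, vessels, interneurons and the few dividing cells of the dentate gyrus lay outside the reach of the driver and contributed reads to every value.

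In dividing cells, D-type cyclins with Cdk4 or Cdk6 phosphorylate the retinoblastoma proteins, which releases E2F factors. E2F factors then switch on the genes for S phase, among them cyclin E, the MCM helicase and the enzymes that make deoxynucleotides, and B-Myb with the MuvB core switches on the later genes of mitosis. Most cells of the adult hippocampus have left the cycle, and proliferation there is known mainly from neural progenitors of the dentate gyrus and from oligodendrocyte progenitors.

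Promoter sequence is shown first for the 3 genes named in the question. The 250 bases upstream of the RefSeq start site (GRCm38.p6) were chr4:136172024-136172273 on the plus strand for E2f2, chr11:117826015-117826264 on the minus strand for Tk1 and chr11:117848987-117849236 on the plus strand for Birc5. They are printed 5′ to 3′ along each gene, and capitals mark a CCAAT box.
E2f2: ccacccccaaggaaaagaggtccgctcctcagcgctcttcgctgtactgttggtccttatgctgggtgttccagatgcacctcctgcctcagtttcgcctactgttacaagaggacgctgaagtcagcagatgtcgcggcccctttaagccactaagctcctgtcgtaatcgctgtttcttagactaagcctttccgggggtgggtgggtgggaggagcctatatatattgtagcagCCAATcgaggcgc
Tk1: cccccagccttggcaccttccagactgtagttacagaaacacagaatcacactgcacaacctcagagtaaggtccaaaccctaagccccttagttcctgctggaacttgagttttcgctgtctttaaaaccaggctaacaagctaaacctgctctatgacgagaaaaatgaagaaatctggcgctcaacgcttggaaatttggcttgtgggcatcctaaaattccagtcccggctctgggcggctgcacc
Birc5: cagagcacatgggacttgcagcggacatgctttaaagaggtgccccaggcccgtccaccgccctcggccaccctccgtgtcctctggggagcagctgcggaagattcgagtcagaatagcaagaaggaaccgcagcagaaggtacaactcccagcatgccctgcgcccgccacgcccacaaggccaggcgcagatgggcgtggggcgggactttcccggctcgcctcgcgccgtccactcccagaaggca

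Windows from 250 bases before to 50 after the RefSeq start were then searched on both strands for the E2F letters TTTCCCGC, TTTGGCGC, TTTGCCGC and TTTCGCGC. Of the 33 tested members with a window, 9 (27.3%) held such a match, against 440 (3.88%) of the 11339 tested genes with a window. The 30 bases around the first match in each are shown because they set the E2f2 window beside those of the replication genes, with the match in capitals.
E2f2: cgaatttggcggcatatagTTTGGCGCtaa
E2f3: ttgaaaagccgGCGGGAAAtctgagtttcg
Cdk2: aaccaggaactGCGGGAAAgttgtgcagct
Mcm3: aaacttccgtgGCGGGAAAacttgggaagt
Mcm5: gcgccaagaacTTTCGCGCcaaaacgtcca
Mcm6: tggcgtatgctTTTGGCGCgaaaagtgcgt
Mcm7: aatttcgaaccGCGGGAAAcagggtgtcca
Cdc6: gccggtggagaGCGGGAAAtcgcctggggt
Cdt1: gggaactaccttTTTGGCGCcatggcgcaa
The window of E2f2 lies on chr4:136172294-136172323 and its match begins at position 40 after the RefSeq start, upstream of the first base of the GENCODE gene. The other windows lie on the plus strand at chr8:75109345-75109374 for Mcm5, chr11:98908002-98908031 for Cdc6 and chr8:122568035-122568064 for Cdt1. On the minus strand they lie at chr13:29986056-29986085 for E2f3, chr10:128705173-128705202 for Cdk2, chr1:20820275-20820304 for Mcm3, chr1:128359797-128359826 for Mcm6 and chr5:138172030-138172059 for Mcm7. No listed E2F letters were in the windows of Tk1 and Birc5. The CHR letters TTTGAA and TTCGAA were in 11 of the 33 members (33.3%) and in 13.0% of all windows, and CCAAT in 19 members (57.6%) and 38.0% of all windows. Tk1 and Birc5 held neither, and E2f2 held CCAAT at position -13. These matches describe letters in a window and do not show binding.

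The libraries held between 18985542 and 19469947 counts, and Kdm1a fell from 80.1 ± 0.90 CPM (counts scaled to library size) in controls to 38.2 ± 1.23 in Kdm1a-ifKOs (mean ± SD, n = 3; log2FC = -1.07 and adjusted p = 6.24e-08 in the edgeR quasi-likelihood test). Counts for Kdm1a cover the whole transcript and not the floxed exons alone. Between libraries of 1 group, the chi-square per degree of freedom of the gene counts lay between 2.95 and 7.59, and the pairs with control replicate 3 gave 6.56 and 7.59. Every pair differed by more than counting noise, so each library was kept as a replicate. Microglial genes moved with the genotype. All 6 fixed microglial markers had a positive log2FC (0.20 to 0.42), 3 of them rose (Cx3cr1, Tmem119 and Csf1r), and their summed level was 262 to 289 CPM in controls and 303 to 385 in Kdm1a-ifKOs. Of the markers of neural stem and progenitor cells, 0 of 6 tested were called, with Eomes below the filter. All 6 had a positive log2FC (0.08 to 0.29), and the sum of the list was 159 to 165 against 162 to 192 CPM. For oligodendrocyte progenitors 0 of 5 were called, and 4 had a positive log2FC (-0.01 to 0.22 over the 5). Their sum was 273 to 283 against 283 to 316 CPM. Of 7 markers of immature neurons, Igfbpl1 rose (log2FC = 1.20, adjusted p = 0.0235), while Dcx had a log2FC of -0.41 (adjusted p = 0.263). All 5 astrocyte markers had a positive log2FC, S100b was called higher (0.26), and their sum was 909 to 999 CPM in controls and 1055 to 1231 in Kdm1a-ifKOs, without overlap. The other lists were mixed. Among 5 genes of ependyma and choroid plexus, Kl rose (1.28), while Ttr had a log2FC of -1.49, Ccdc153 -0.30, Foxj1 0.0088 and Folr1 0.12. The sum was 45.3 to 74.5 against 74.8 to 85.9 CPM. Kl alone went from 22.5 to 26.9 CPM in controls to 56.4 to 60.6 in Kdm1a-ifKOs, so the higher sum rested on Kl. Among 5 genes of pericytes and meninges, Pdgfrb rose (0.39), 2 had negative estimates, and the sums overlapped. Of 6 genes of excitatory neurons C1ql2 rose and Neurod6 fell, of 5 genes of interneurons Vip fell, and for oligodendrocytes, endothelial cells and blood cells 0 of 15 were called by edgeR or DESeq2, with 1 at an unadjusted p under 0.05. The part of these cell types in the values below was not tested.

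Of the 46 genes, 39 passed the filter on low counts and were tested with 16799 genes in all. A gene was called when its adjusted p in the edgeR quasi-likelihood test was under 0.05. Called higher in Kdm1a-ifKOs were 5 members, E2f2, Tk1, Birc5, Ccnd1 and Ccnd3, which is 12.8% of those tested, where 6.04% of all tested genes were called higher. The 6 calls in either direction compare with 8.85% of all tested genes. Called lower was 1 member, Mcm5, or 2.56%, where 2.82% of all tested genes were called lower. Without E2f2, Tk1 and Birc5, which were named with results of these libraries known, 2 of 36 members (5.56%) rose. That share is near the 6.04% of all tested genes. E2f2, Tk1 and Birc5 were therefore not the only calls, but the rest of the list gave calls at about the rate of all genes. They were the 3 members with a log2FC over 1, a size that 1.36% of all tested genes reached as calls. In bulk tissue, more cells of a type and more RNA per cell cannot be told apart in any of these values.

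**Figure D1:**
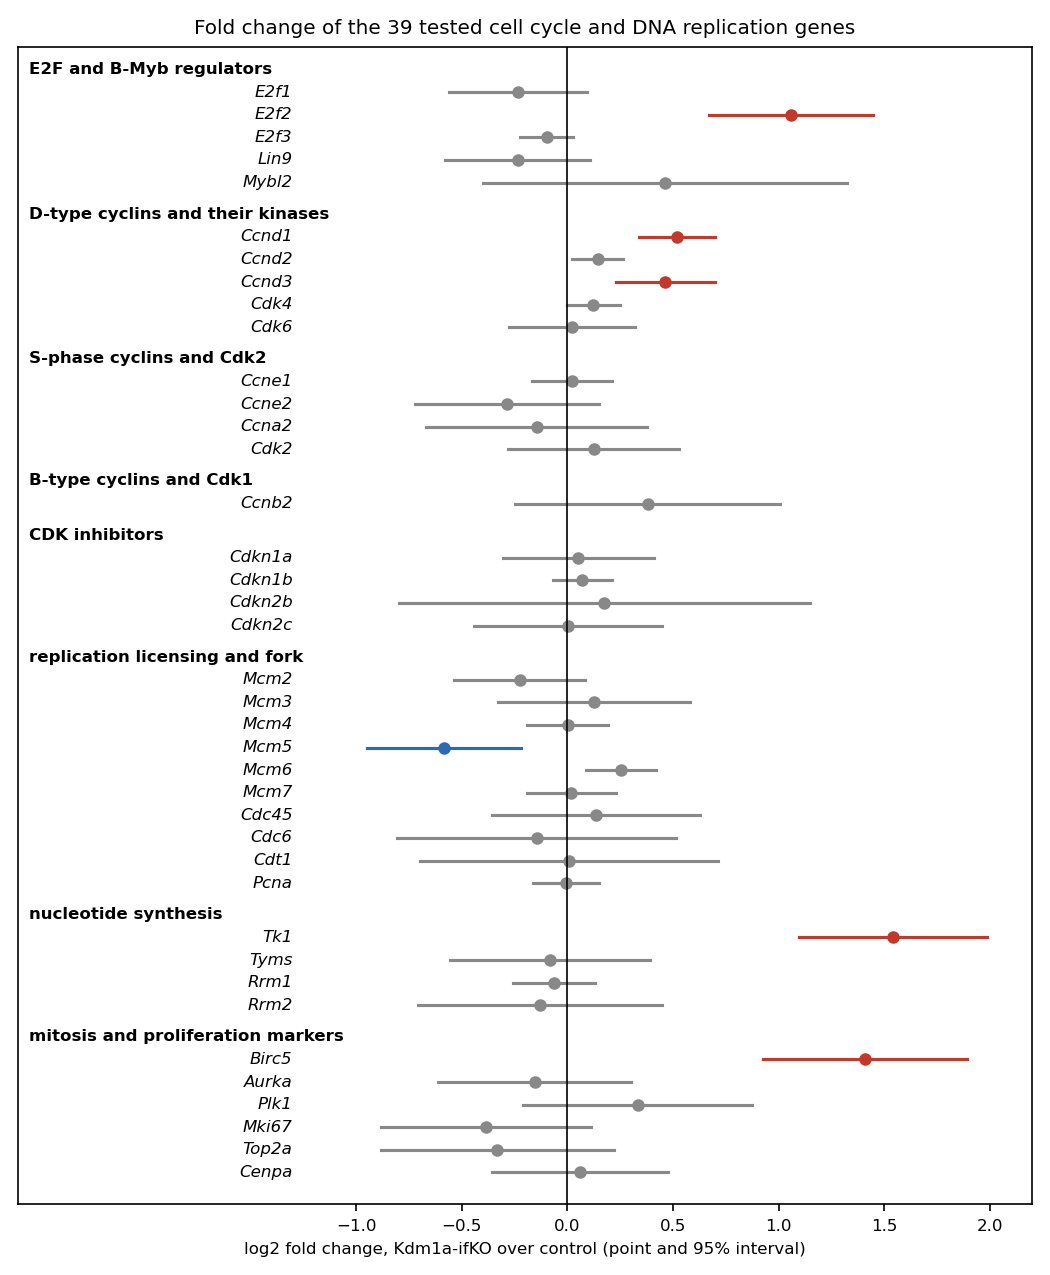
Log2 fold change (Kdm1a-ifKO over control) of the 39 tested members by role, with points for the edgeR estimate and bars for its 95% interval; red marks members called higher, blue the member called lower, and grey those not called. E2f2, Tk1 and Birc5 lie between 1.06 and 1.54, and the 33 grey estimates between -0.38 and 0.46.

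E2f2 encodes a transcription factor of the activator class of E2Fs (ENSMUSG00000018983, chromosome 4, 136172394 to 136196057, plus strand). The controls held 35, 36 and 33 counts of it, and the Kdm1a-ifKOs 82, 75 and 67. The lowest Kdm1a-ifKO library stood well above the highest control. The level rose from 1.83 ± 0.058 to 3.82 ± 0.39 CPM (mean ± SD, n = 3), a log2FC of 1.06 with an SE of 0.18 (95% interval 0.67 to 1.45, adjusted p = 0.0024). The other tested regulators were not called. E2f3, the most abundant gene of the group per length at 34.6 TPM (CPM corrected for exon length) in controls, had a log2FC of -0.10 (adjusted p = 0.335), with every Kdm1a-ifKO library slightly below every control. E2f1, another activator, had a log2FC of -0.23 (adjusted p = 0.374). Lin9, a subunit of the MuvB core, had a log2FC of -0.23 as well (adjusted p = 0.399). Mybl2, which encodes B-Myb, had 24, 17 and 25 counts in controls and 20, 21 and 53 in Kdm1a-ifKOs. Its log2FC of 0.46 rested on Kdm1a-ifKO replicate 3 and was -0.15 without that library (adjusted p = 0.512 with it). E2f7 and E2f8, the atypical repressors, had 2 to 7 counts per library and were not tested.

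Among the D-type cyclins and their kinases, Ccnd1 and Ccnd3 rose. Ccnd1 encodes cyclin D1 (ENSMUSG00000070348, chromosome 7, 144929931 to 144939925, minus strand) and had 908, 897 and 722 counts in controls and 1281, 1151 and 1304 in Kdm1a-ifKOs. The groups did not overlap, and control replicate 3 was the lowest. The level rose from 44.5 ± 4.91 to 63.8 ± 4.64 CPM, a log2FC of 0.52 with an SE of 0.083 (95% interval 0.34 to 0.70, adjusted p = 0.00215). Ccnd3 encodes cyclin D3 (ENSMUSG00000034165, chromosome 17, 47505051 to 47599691, plus strand) and had 441, 332 and 354 counts against 473, 571 and 561. Control replicate 1 and Kdm1a-ifKO replicate 1 lay close to each other. The log2FC was 0.46 with an SE of 0.11 (adjusted p = 0.0205), and the call was lost without control replicate 2, control replicate 3, Kdm1a-ifKO replicate 2 or Kdm1a-ifKO replicate 3, with adjusted p-values up to 0.0889. The 3 remaining members of the group were not called. Ccnd2, or cyclin D2, had a log2FC of 0.14 (adjusted p = 0.134), Cdk4, the most abundant of the group at 57.5 TPM in controls, 0.12 (adjusted p = 0.215) and Cdk6 0.02. All 5 log2FCs were positive, and the summed level of the group was 208 to 219 CPM in controls and 246 to 262 in Kdm1a-ifKOs. The 6 microglial markers, with log2FCs of 0.20 to 0.42, and the 5 astrocyte markers, with 0.06 to 0.38, moved in the same direction. So did the 6 tested markers of neural stem and progenitor cells (0.08 to 0.29) and 4 of 5 of oligodendrocyte progenitors (-0.01 to 0.22 over the 5). The part of these cell types in this group was not tested. Both called cyclins overlap a gene on the opposite strand, Ccnd1 LTO1 over 1771 bases and Ccnd3 Bysl over 361 bases, and the strand setting of the counting is not given in the sources used here. Those neighbours had log2FCs of -0.07 (adjusted p = 0.637) and 0.04 (adjusted p = 0.78).

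**Figure D2:**
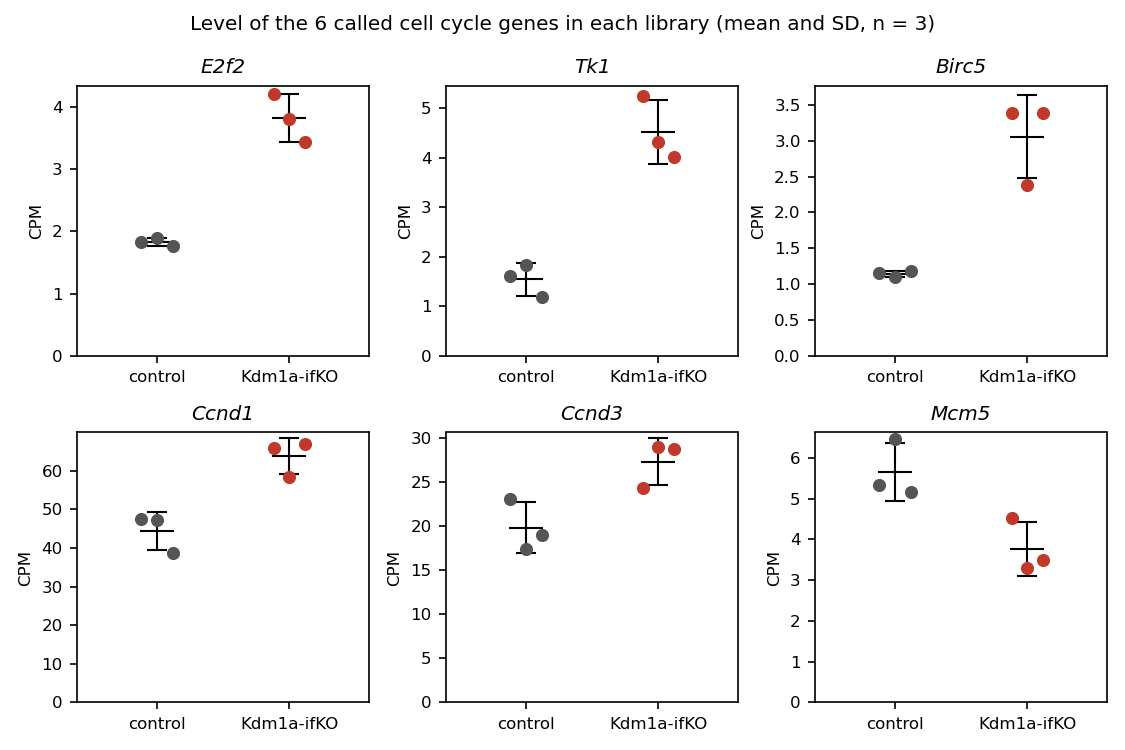
Level in CPM of the 6 called members in each library, with points for mice, and the mean and SD of each group (n = 3) as bars. In E2f2, Tk1 and Birc5 all Kdm1a-ifKO points lie far above the controls; in Ccnd1 and Ccnd3 the gap between the groups is small beside their level, and in Mcm5 the Kdm1a-ifKO points lie below the controls.

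The cyclins and kinases of later phases were not called. Ccne1, a cyclin E gene and the most abundant of the S-phase group at 22.5 TPM in controls, had a log2FC of 0.02 (95% interval -0.17 to 0.21). Ccne2, the other cyclin E gene, had the group's largest change, -0.29 (adjusted p = 0.416). Ccna2, or cyclin A2, had a log2FC of -0.14 and Cdk2, its kinase, 0.13. Of the genes for entry into mitosis, Ccnb2 was tested and had a log2FC of 0.38 (95% interval -0.25 to 1.01, adjusted p = 0.456). Cdk1, the mitotic kinase, had 2, 7 and 3 counts in controls and 7, 13 and 12 in Kdm1a-ifKOs. These groups met at 7 counts, and Cdk1 was below the filter. Ccnb1, cyclin B1, had 3 to 8 counts in every library and was not tested either.

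The inhibitors of CDKs within the list were not called. Cdkn1b, which encodes p27 and was the most abundant at 41.2 TPM in controls, had a log2FC of 0.07 (95% interval -0.07 to 0.21). Cdkn1a, which encodes p21 and is a target of p53, had a log2FC of 0.05 (95% interval -0.30 to 0.41). Cdkn2b had the largest estimate, 0.18, with a 95% interval of -0.80 to 1.15 at 0.27 to 0.89 CPM. Cdkn2c had a log2FC of 0.0022, and Cdkn2a had at most 2 counts in a library and was not tested.

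Of the 10 genes for licensing and replication forks, Mcm5 fell and the others were not called. Mcm5, a subunit of the MCM helicase (ENSMUSG00000005410, chromosome 8, 75109569 to 75128439, plus strand), had 102, 123 and 96 counts in controls and 88, 65 and 68 in Kdm1a-ifKOs. The groups did not overlap. The log2FC was -0.58 with an SE of 0.17 and an adjusted p of 0.0488, close to the threshold. The call was lost in 9 of 13 alternative analyses, among them DESeq2 and the analyses without control replicate 1, 2 or 3 or without Kdm1a-ifKO replicate 2 or 3, with adjusted p-values up to 0.158. Mcm6, another subunit of the same ring, had 343, 355 and 333 counts against 431, 401 and 439. Its log2FC of 0.26 (adjusted p = 0.0553) lay just outside the threshold and in the opposite direction. The remaining subunits, Mcm2, Mcm3, Mcm4 and Mcm7, had log2FCs of -0.23, 0.13, 0.0033 and 0.02. Pcna, the sliding clamp of the polymerases and the most abundant of the group at 33.6 TPM in controls, had a log2FC of -0.0068 (95% interval -0.16 to 0.15). Cdc45, Cdc6 and Cdt1, which load or activate the helicase, lay between -0.15 and 0.14. The summed level of the 10 genes was 80.1 to 83.1 CPM in controls and 81.6 to 83.7 CPM in Kdm1a-ifKOs.

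Tk1 encodes the cytosolic thymidine kinase, which salvages thymidine for DNA synthesis (ENSMUSG00000025574, chromosome 11, 117815526 to 117826092, minus strand). It had 31, 35 and 22 counts in controls and 102, 85 and 78 in Kdm1a-ifKOs. All Kdm1a-ifKO libraries stood far above the controls. The level rose from 1.55 ± 0.33 to 4.52 ± 0.65 CPM, a log2FC of 1.54 with an SE of 0.21 (95% interval 1.10 to 1.99, adjusted p = 3.72e-04). The other enzymes of the group were not called. Rrm1, the large subunit of ribonucleotide reductase and the most abundant at 5.96 TPM in controls, had a log2FC of -0.06 (95% interval -0.26 to 0.13). Rrm2, its small subunit, had -0.13 (adjusted p = 0.809), and Tyms, thymidylate synthase, -0.08 (adjusted p = 0.858). Tk1 overlaps Afmid on the opposite strand by 169 bases at its 5′ end, and the annotated locus Gm20708 covers it on that strand over 10567 bases with 0 counts in controls and 1 in each Kdm1a-ifKO library.

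Birc5 encodes survivin, a subunit of the chromosomal passenger complex and an inhibitor of apoptosis (ENSMUSG00000017716, chromosome 11, 117849251 to 117855743, plus strand). It had 22, 21 and 22 counts in controls and 66, 47 and 66 in Kdm1a-ifKOs. The controls were nearly identical, and Kdm1a-ifKO replicate 2 was the lowest of its group but above every control. The level rose from 1.15 ± 0.040 to 3.06 ± 0.58 CPM, a log2FC of 1.41 with an SE of 0.22 (95% interval 0.93 to 1.89, adjusted p = 0.00144). The markers of proliferation beside it were not called, and several had negative estimates. Mki67, which encodes the proliferation antigen Ki-67, had a log2FC of -0.38 (95% interval -0.88 to 0.11, adjusted p = 0.333), and Top2a, topoisomerase II alpha, -0.33 (adjusted p = 0.461). Aurka, a mitotic kinase and the most abundant of the group at 3.43 TPM in controls, had -0.15, Cenpa, the centromeric histone, 0.06 and Plk1, another mitotic kinase, 0.33 (adjusted p = 0.449). Aurkb, the kinase that works in 1 complex with survivin, had 3, 3 and 1 counts in controls and 9, 4 and 1 in Kdm1a-ifKOs, and Bub1, a checkpoint kinase, had at most 3 counts in a library. Both were below the filter.

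Within their role groups, the 3 genes took a larger share of the counts. These shares restate the counts behind the calls above and are no separate test. Among the regulators, most of the other counts were those of E2f3. Tk1 made up 4.99% to 8.27% of the counts of the nucleotide synthesis genes in controls and 16.7% to 20.6% in Kdm1a-ifKOs. The 95% Wilson interval of the highest control share was 5.88% to 11.5% and that of the lowest Kdm1a-ifKO share 13.6% to 20.3%, and these intervals cover counting error only. Birc5 went from 8.37% to 10.3% of the mitosis group in controls to 18.4% to 25% in Kdm1a-ifKOs, with an interval of 6.89% to 15.1% for the highest control and 14.2% to 23.6% for the lowest Kdm1a-ifKO library. E2f2 went from 2.90% to 3.28% of the regulators to 5.89% to 7.19%, with intervals of 2.38% to 4.50% and 4.66% to 7.41%. For each gene the shares of the groups did not overlap, although for Birc5 the counting intervals did. The summed level of the remaining members was 18.0 to 22.5 CPM in controls and 18.9 to 20.2 in Kdm1a-ifKOs for nucleotide synthesis, 10.0 to 13.0 and 10.2 to 10.9 for mitosis, and 55.8 to 60.9 and 54.2 to 55.0 for the regulators.

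**Figure D3:**
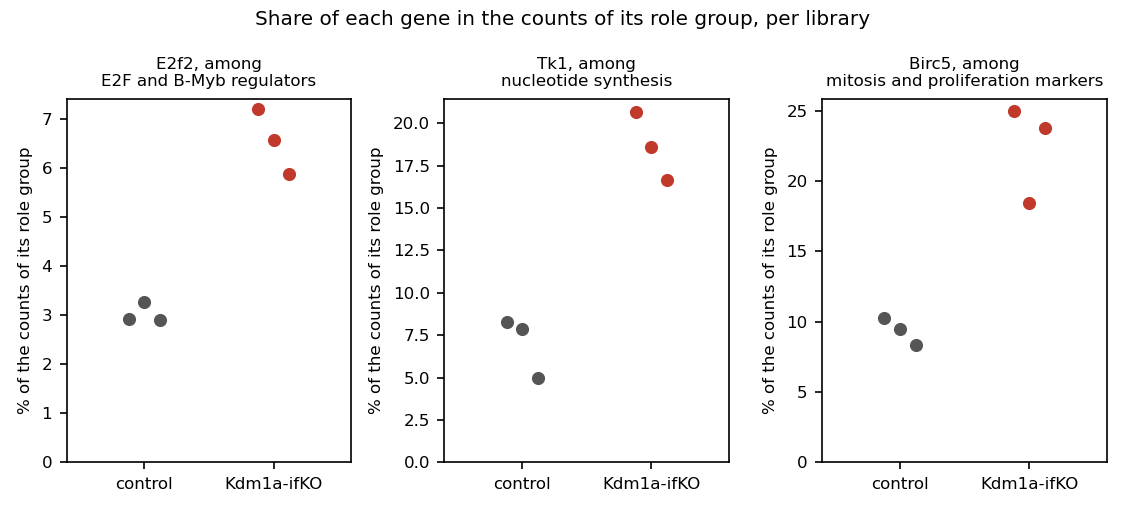
Percent of the counts of a role group that came from E2f2, Tk1 or Birc5, with 1 point per library and axes that start at 0. Each Kdm1a-ifKO point lies above each control point, up to 7.19% for E2f2, 20.6% for Tk1 and 25% for Birc5.

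Across the 33 members that were not called, log2FCs ran from -0.38 for Mki67 to 0.46 for Mybl2, with a median of 0.0096, beside a median of -0.0034 over all tested genes. For 30 of the 33 the 95% interval lay within -1 and 1, so that a doubling like that of E2f2 lay outside it, and the exceptions were Mybl2, Ccnb2 and Cdkn2b. Leaving out E2f2, Tk1 and Birc5, 36 members were tested. The interval of Tk1 lay wholly above those of 34 of these 36 members, that of Birc5 above 33 and that of E2f2 above 29. E2f2, Tk1 and Birc5 were named with results of these libraries known, so this order restates their selection and is no separate test. The groups of 11 members did not overlap. For 8 members all Kdm1a-ifKO libraries exceeded all controls, namely the 5 called ones with Ccnd2, Cdk4 and Mcm6, where 15.7% of all tested genes had this order. Every Kdm1a-ifKO library was below every control for E2f3, Mcm5 and Top2a, an order that 14.4% of all tested genes had.

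Some genes next to the 3 also changed. Tk1 and Birc5 are neighbours on chromosome 11, with start sites 23.2 kb apart. In all, 7 further tested genes start within 100 kb of Tk1, Birc5 or E2f2, and 4 of them rose (57.1%), Afmid, Tmc6, Tmc8 and Id3, where 6.04% of all tested genes were called higher. Tk1 and Birc5 share their neighbours, so Afmid, Tmc6 and Tmc8 belong to 1 locus, while around E2f2 1 of 2 tested genes rose. The pooled share therefore rests mainly on that 1 locus. It was also taken around genes named with results of these libraries known, and is no separate test. The other 3 of the 7 were not called in either direction, and within 250 kb the count was 4 of 19. Afmid, which encodes arylformamidase of the kynurenine pathway, starts 0.168 kb from Tk1 and runs away from it. It had 11, 24 and 12 counts in controls and 48, 42 and 68 in Kdm1a-ifKOs, a log2FC of 1.70 (adjusted p = 0.00419). Reads from the bases that Tk1 and Afmid share cannot be told apart without strand. Tmc6 and Tmc8, genes of transmembrane channel-like proteins about 44 kb from the Tk1 start, are a further pair of neighbours. They overlap on opposite strands at their 5′ ends, from 117782076 to 117782198, where reads cannot be told apart without strand either. Tmc6 had 134, 130 and 132 counts in controls and 255, 268 and 216 in Kdm1a-ifKOs (log2FC = 0.85, adjusted p = 3.46e-04). Tmc8 had 7, 9 and 4 counts against 31, 26 and 15 (log2FC = 1.78, adjusted p = 0.0135), and the call was lost without Kdm1a-ifKO replicate 1 (adjusted p = 0.07). Tmc8 passed the filter on low counts only through its Kdm1a-ifKO libraries, so its call gives no separate support to the share above. Syngr2, the nearest tested gene on the other side of Tk1, which encodes a synaptogyrin, had a log2FC of 0.46 (adjusted p = 0.139), and Tha1, the next after Birc5, 0.09 (adjusted p = 0.751). Syngr2 lies between the called pair of Tmc genes and the called Tk1, Afmid and Birc5.

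**Figure D4:**
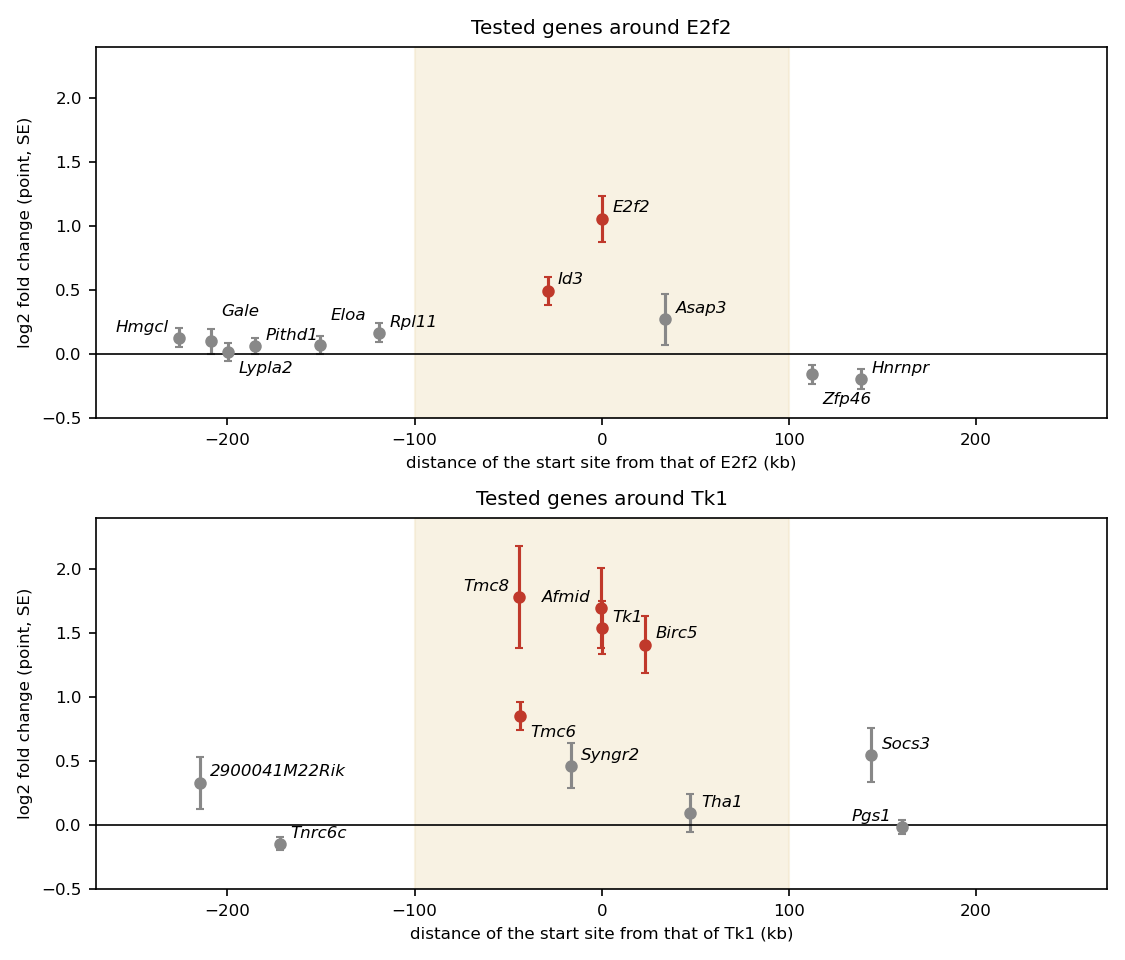
Log2 fold change of the tested genes around E2f2 and Tk1 against the distance between start sites in kb, along increasing genome position, with points for the edgeR estimate and bars for its SE; red marks genes called higher and the shaded band 100 kb to either side. Around Tk1 the called genes lie between 0.85 and 1.78, and outside the band no gene is called.

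Around E2f2 on chromosome 4, Id3 rose, which encodes an inhibitor of basic helix-loop-helix factors and starts 28.9 kb from E2f2. It had 532, 431 and 412 counts in controls and 575, 743 and 685 in Kdm1a-ifKOs (log2FC = 0.50, adjusted p = 0.0197). The call was lost without control replicate 2, control replicate 3 or Kdm1a-ifKO replicate 3, with adjusted p-values up to 0.0869. Asap3, the next tested gene on the other side, had a log2FC of 0.27 (adjusted p = 0.431). E2f2 lies on the same chromosome as Kdm1a itself, with 354 kb between the genes, and a part of this closeness in the E2f2 values was not tested. Of the other called members, Ccnd1, Ccnd3 and Mcm5 had 4 tested genes that are not members within 100 kb, and none of these 4 was called. Around the 33 members that were not called, 5 of 114 such genes rose (4.39%) and 2 fell.

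CTCF loops were measured by ChIA-PET in 1 library of sorted excitatory nuclei, and describe that library. The nuclei came from male mice of another cross, labelled WT, which carried Camk2a-creERT2 and the nuclear tag CAG-Sun1/sfGFP and were sorted at 12 weeks of age after tamoxifen. A loop was kept by the authors when at least 3 paired-end tags (PETs) joined its anchors, and was assigned here to a gene with an anchor within 10 kb of its body. Among all 46 members the median was 0.5 loops and 50% had no loop, beside a median of 1 and 43.0% among all tested genes. E2f2 had 13 loops with 126 PETs, the largest number of loops among the members. Several of these loops had both anchors within 10 kb of E2f2 itself. By PETs, Mcm5 (232), Rrm2 (219), Ccnd1 (143) and Cdkn1a (139) stood above E2f2. The strongest loop of E2f2, with 64 PETs, spanned 89.9 kb and had no tested gene within 10 kb of its far anchor. Its near anchor lay upstream of the E2f2 gene body, and Id3 lay between the 2 anchors. With an anchor on the gene body, E2f2 had 6 loops with 33 PETs, and at most 8 PETs in 1 loop. Tk1 had 8 loops with 67 PETs, of which 3 ended at Sept9, 1 with 12 PETs at Tnrc6c, and 1 with 4 PETs at Tmc6 and Tmc8, over a span of 36.7 kb. Sept9, a septin gene, and Tnrc6c, a gene of small-RNA silencing, lay beyond the 100 kb window. Birc5 had 0 loops by this rule. Of the other called members, Ccnd1 had 6 loops with 143 PETs, Ccnd3 7 with 28 and Mcm5 10 with 232. No loops were measured in Kdm1a-ifKOs, so a change of looping was not analysed here.

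A list of 98 further genes of the cell cycle and related pathways, among them nucleotide metabolism genes and p53 targets, gave few calls. Of 90 tested, 2 rose in edgeR (2.22%, where 6.04% of all tested genes were called higher) and 0 fell, and DESeq2 called the same 2. An unadjusted p under 0.05 was reached by 14 of them (15.6%), where 24.5% of all tested genes reached it. By list, 0 of 12 pocket proteins and partners of E2F or MuvB were called, 0 of 28 further replication genes, 0 of 11 further nucleotide genes and 1 of 24 further mitosis genes. The mitosis gene was Pttg1, which encodes securin, with 544, 506 and 545 counts in controls and 689, 683 and 708 in Kdm1a-ifKOs. The groups were well apart, and the change was small, with a log2FC of 0.34 (adjusted p = 0.0064). Of the 2 further CDK inhibitors, Cdkn1c rose, which encodes p57 and is known as an imprinted gene. It had 25, 30 and 30 counts in controls and 70, 85 and 68 in Kdm1a-ifKOs, a log2FC of 1.34 (95% interval 0.92 to 1.76, adjusted p = 7.21e-04). Among 13 tested targets of p53, 0 were called in either direction by edgeR, 4 had an unadjusted p under 0.05 (30.8%, beside 24.5% of all tested genes), DESeq2 called 0 of 12, and log2FCs ran from -0.34 to 0.50.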

How the data were processed

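The authors trimmed single-end poly-A reads with cutadapt 1.18, aligned them to mm10 with HISAT2 2.1.0, filtered them for mapping quality over 30 and nuclear chromosomes, and took read numbers of Ensembl genes from HTSeq 0.11.1. The deposited values are raw read counts. PET counts of loops were made by the authors with ChIA-PIPE and deposited after peak filtering. Here, genotypes were compared by the robust quasi-likelihood F test of edgeR 4.0.16 under R 4.3.3, after filterByExpr and TMM, and p-values were adjusted over all tested genes after Benjamini and Hochberg. The pipeline was tested on simulated data. CPM used TMM library sizes, and TPM divided counts by summed exon length. An exact permutation test of 3 against 3 mice cannot give a p under 0.1. Named in full were E2f2, Tk1, Birc5 and every called member, with the most abundant and the most changed uncalled member of each role group, called genes of the pathway lists, and neighbours. Other genes, such as further markers and remaining members, were named to complete a group, and the loop partners were chosen after their values were seen. Members and lists were chosen with earlier results of these data known. Alternatives were DESeq2 1.42.0, other normalizations and filters, a replicate block, each library left out, other windows and PET minimums, and, added after seeing the data, control replicate 3 and Kdm1a-ifKO replicate 2 left out together. Deviations from the group means gave correlations of -0.05, -0.12 and -0.17 for same-numbered libraries and -0.11 to 0.19 for differently numbered ones. With 3 mice per group these values cannot show whether the numbers of the labels pair mice. The main comparison used genotype alone.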

Additional observations from a re-analysis of the deposited data

How the results depend on the processing

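E2f2, Tk1, Birc5 and Ccnd1 were called higher in all 13 alternative analyses. Without 1 library at a time, log2FCs lay between 0.98 and 1.13 for E2f2, 1.39 and 1.68 for Tk1, and 1.33 and 1.56 for Birc5. With a replicate block 4 members rose in place of 5, as Ccnd3 was lost, and 0 fell. The block also left Id3 uncalled (adjusted p = 0.0644), so that 3 genes near E2f2, Tk1 and Birc5 rose in place of 4. The number of members called lower was 0 in place of 1 with DESeq2, with upper-quartile normalization, with the replicate block and without control replicate 3 and Kdm1a-ifKO replicate 2 together. Without 1 library it lay between 0 and 1. The same pair of libraries left 2 genes near E2f2, Tk1 and Birc5 called higher in place of 4. Without a filter on low counts, 5 further pathway genes rose and 1 fell, and without control replicate 1, 1 fell. With at least 5 PETs E2f2 had 6 loops and Tk1 4, with at least 10 PETs 1 and 3, and with an anchor on the gene body E2f2 had 6. The cause of these shifts was not tested. Of the 33 uncalled members, 17 changed sign under at least 1 alternative, without a call. Leaving libraries out moved Mybl2 from -0.15 to 0.80, Cdk6 from -0.017 to 0.076, Ccne1 from -0.025 to 0.085, Ccna2 from -0.41 to 0.067, Cdkn1a from -0.13 to 0.21, Cdkn2b from -0.21 to 0.78 and Cdkn2c from -0.11 to 0.10. It moved Mcm3 from -0.12 to 0.30, Mcm4 from -0.036 to 0.047, Mcm7 from -0.019 to 0.067, Cdc45 from -0.058 to 0.25, Cdc6 from -0.38 to 0.096, Cdt1 from -0.33 to 0.25, Pcna from -0.030 to 0.027, Tyms from -0.25 to 0.23, Rrm2 from -0.31 to 0.10 and Cenpa from -0.034 to 0.16. The replicate block put Cdkn2c at -0.0026 and upper-quartile normalization Pcna at 0.019. Mcm6 was called higher under 3 alternatives, without a filter on low counts, with upper-quartile normalization and without Kdm1a-ifKO replicate 2.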
